A study of Danio rerio with 8 samples.

Results

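Transcripts of 40 nucleolar ribosome assembly factors were followed in whole zebrafish (Danio rerio) embryos with and without a knockdown of ddx3xb, a DEAD-box RNA helicase gene of the DDX3 family. Members were chosen by name: a symbol that begins with nop, utp, rrp or nol and a digit, or that is on a short list of other known factors such as fbl, dkc1, bop1, wdr12 and ncl. A total of 41 identifiers met the name rule, and 40 of them reached the required 1 RPKM in at least 1 group, out of 16217 genes that did so. RPKM scales reads to gene length and library depth, so levels can be compared between genes. The gene left out was NOL4L, whose highest value was 0.824 RPKM, and the member nearest the limit was its paralog nol4la, with a highest value of 5.84 RPKM. Identifiers of 12 further symbols, among them NOP58, NOP10, nop14 and IMP3, were not analysed here.

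Embryos had received either a morpholino against ddx3xb or a control morpholino, as the titles name it, and were collected at 6 or 2 hours post fertilization (hpf). Morpholinos are antisense compounds that bind an RNA and keep it from being translated or spliced; they act throughout the embryo and leave the gene itself as it is. The genotype labels call the control embryos wild type and, for 1 knockdown library at 6 hpf, name ddx4xb where the title names ddx3xb; the titles were followed. The groups were knockdown at 6 hpf, control at 6 hpf, knockdown at 2 hpf and control at 2 hpf, with 2 libraries of poly(A) RNA each. Embryos at 4 hpf belong to the study as well and were not analysed here. Each group has a single value per gene, so no replicate spread, error or p-value can be given, and each difference below compares groups without a replicate check.

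Ribosomal RNA is copied by RNA polymerase I in the nucleolus as a long precursor. Small nucleolar RNPs (snoRNPs) of the box C/D and box H/ACA classes mark it with methyl groups and pseudouridines. A large early particle, the small subunit processome, folds and cuts the part that becomes the small subunit, while other factors build the large subunit. The early zebrafish embryo starts out with ribosomes and RNA from the egg, and its own genome is switched on between the ages sampled here.

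As a group the members were abundant, and their median level was higher at 6 than at 2 hpf in both arms. Their median level at 6 hpf was 50.5 RPKM in knockdown and 57.8 RPKM in control embryos, where all 16217 genes had medians of 6.49 RPKM in knockdown and 5.85 RPKM in control embryos. At 2 hpf the members' median was 21.3 RPKM in knockdown and 30.2 RPKM in control embryos. The order of the members was much alike in both arms, with a Spearman rho of levels of 0.91 at 6 hpf and 0.98 at 2 hpf across the 40 members, as a description (0.90 and 0.99 across all genes). Nucleolin, ncl, led in all 4 groups and FBL came second in all of them. The 5 most abundant members made up 54.9% of the members' summed RPKM in knockdown and 56.3% in control embryos at 6 hpf.

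**Figure D1:**
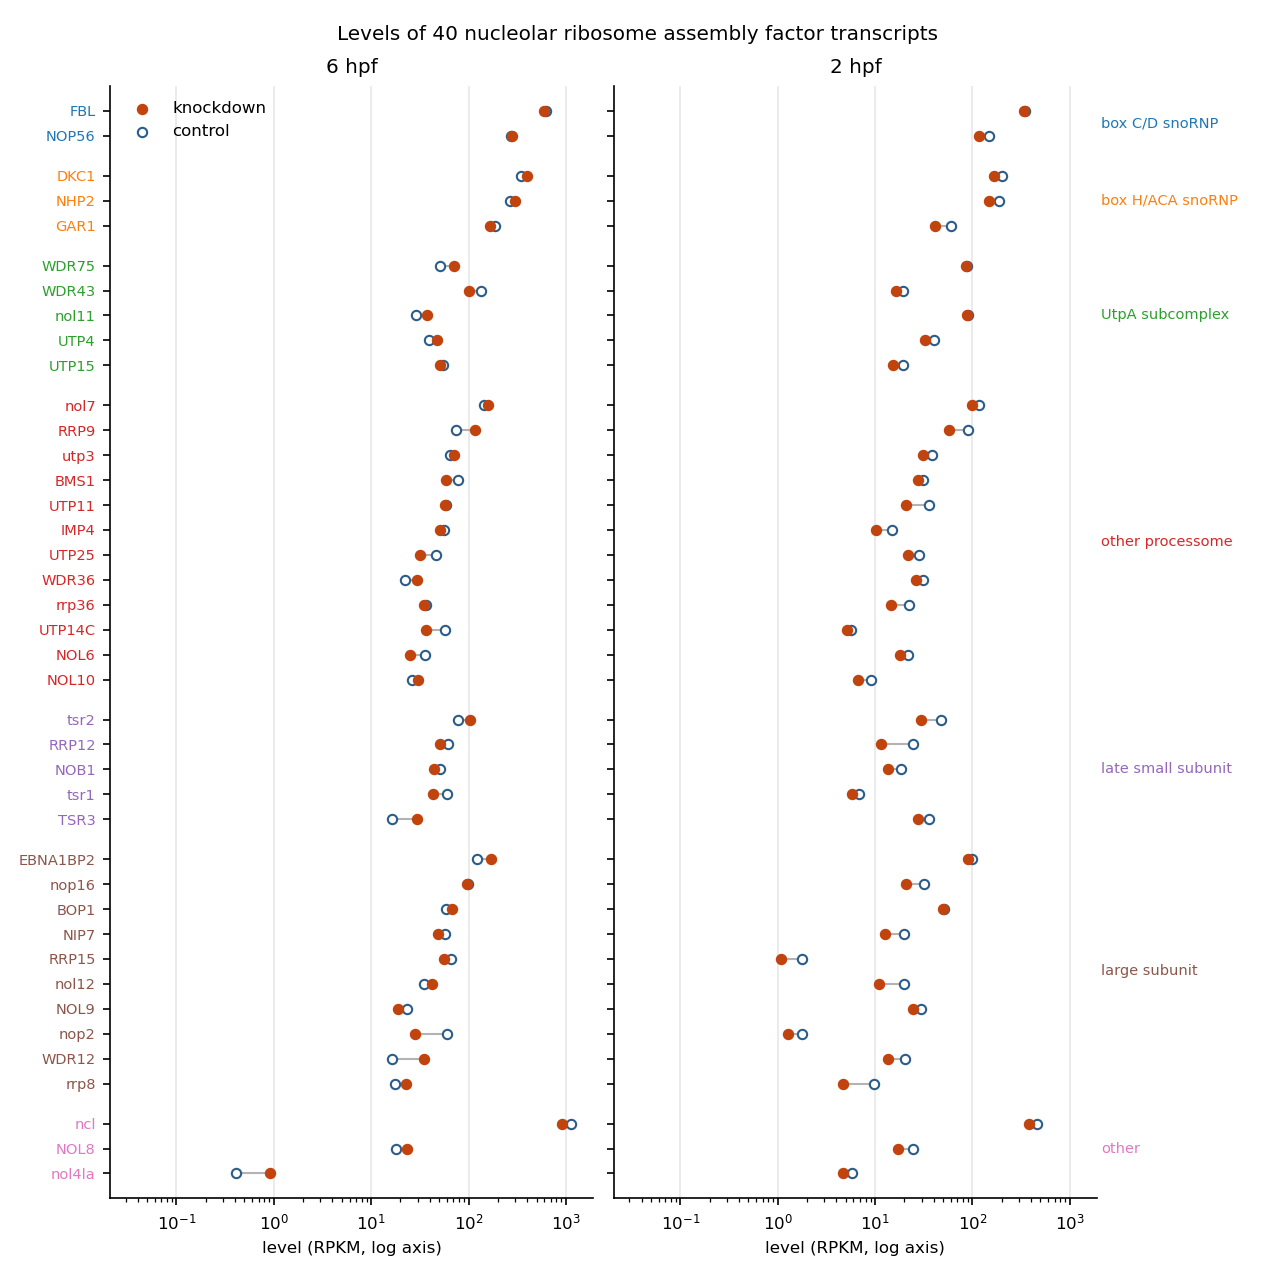
Level of each member in RPKM on a log axis, with knockdown (filled) and control (open) joined by a line, at 6 hpf (left) and 2 hpf (right), members grouped by role. ncl and FBL lie highest in every group, nop2 and RRP15 lie near 1 to 2 RPKM at 2 hpf and between 28.5 and 66.6 RPKM at 6 hpf, and knockdown lies left of control for all 40 members at 2 hpf.

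Relative depth was read from steps in values under 0.3 RPKM: of the 2 libraries in a group, the deeper held 1.03 or 1.18 times the reads of the other at 6 hpf and 1.07 or 1.21 times at 2 hpf. Which of these factors belongs to which arm was not settled. At a low-value gene of median read worth, 5 RPKM stood for about 209.5 reads in knockdown and 243.5 in control at 6 hpf, and 387 in knockdown and 461 in control at 2 hpf. Of the 40 members 36 were at 5 RPKM or more in all 4 groups. Ratios are log2 of (RPKM + 1) in one group over the other, which understates the change of low genes, and a gene is said to have risen or fallen where it changed by 2-fold or more. The targeted transcript ddx3xb stood at 322 RPKM in knockdown and 141.0 RPKM in control embryos at 6 hpf, and at 251 RPKM in knockdown and 274 RPKM in control embryos at 2 hpf; RNA levels do not report on a morpholino's effect on protein. Markers of the egg and of other tissues moved too. The summed level of 7 maternal and oocyte markers at 6 hpf was 191 RPKM in knockdown and 86.4 RPKM in control embryos, and that of 4 enveloping layer markers was 493 RPKM in knockdown and 1890.4 RPKM in control embryos. The 3 zygotic blastoderm markers with values summed to 87.97 RPKM in knockdown and 136 RPKM in control embryos, and 3 yolk syncytial layer markers to 69.9 RPKM in knockdown and 96.1 RPKM in control embryos. The yolk syncytial markers did not go the same way, with mxtx2 at 48.6 RPKM in knockdown and 29.5 RPKM in control embryos and HNF4A at 21.1 RPKM in knockdown and 62.8 RPKM in control embryos. Markers of red blood cells reached at most 0.0268 RPKM in any group, and the neuronal marker ELAVL3 at most 0.408 RPKM. No muscle marker was matched to a value here. What part such shifts in makeup have in the members' values was not tested, and fewer cells of a type cannot be told apart from less RNA per cell.

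At 6 hpf few members differed by 2-fold between knockdown and control embryos. WDR12 rose and nop2 fell, and the other 38 members stayed within 2-fold. That is 2 of 40 members called, where 16.6% of all genes were called (8.72% risen and 7.87% fallen), and 19% of the genes that reached 5 RPKM in any group. The members' median log2 ratio was -0.0043 with quartiles of -0.26 and 0.37, against a median of 0.20 and quartiles of -0.31 and 0.61 over all genes. Members were evenly split, with 20 above 0 and 20 below, where 38.9% of all genes lay below 0. At 1.5-fold 3 members passed upward (26.1% of all genes) and 2 downward (16.2%). These values depend on the scaling: rescaling by the median ratio of genes present in every group shifts ratios by about -0.32, after which the members' median was -0.32, 29 of 40 were below 0 (52.8% of all genes) and WDR12 was at 0.74, short of 2-fold. No member then rose, where 3.9% of all genes did, and nop2 fell, where 12.2% did. With quantile normalization WDR12 stood at 0.89 and no member rose, where 6.41% of all genes did. A pseudocount of 5 RPKM also left both WDR12 and nop2 short of 2-fold.

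**Figure D2:**
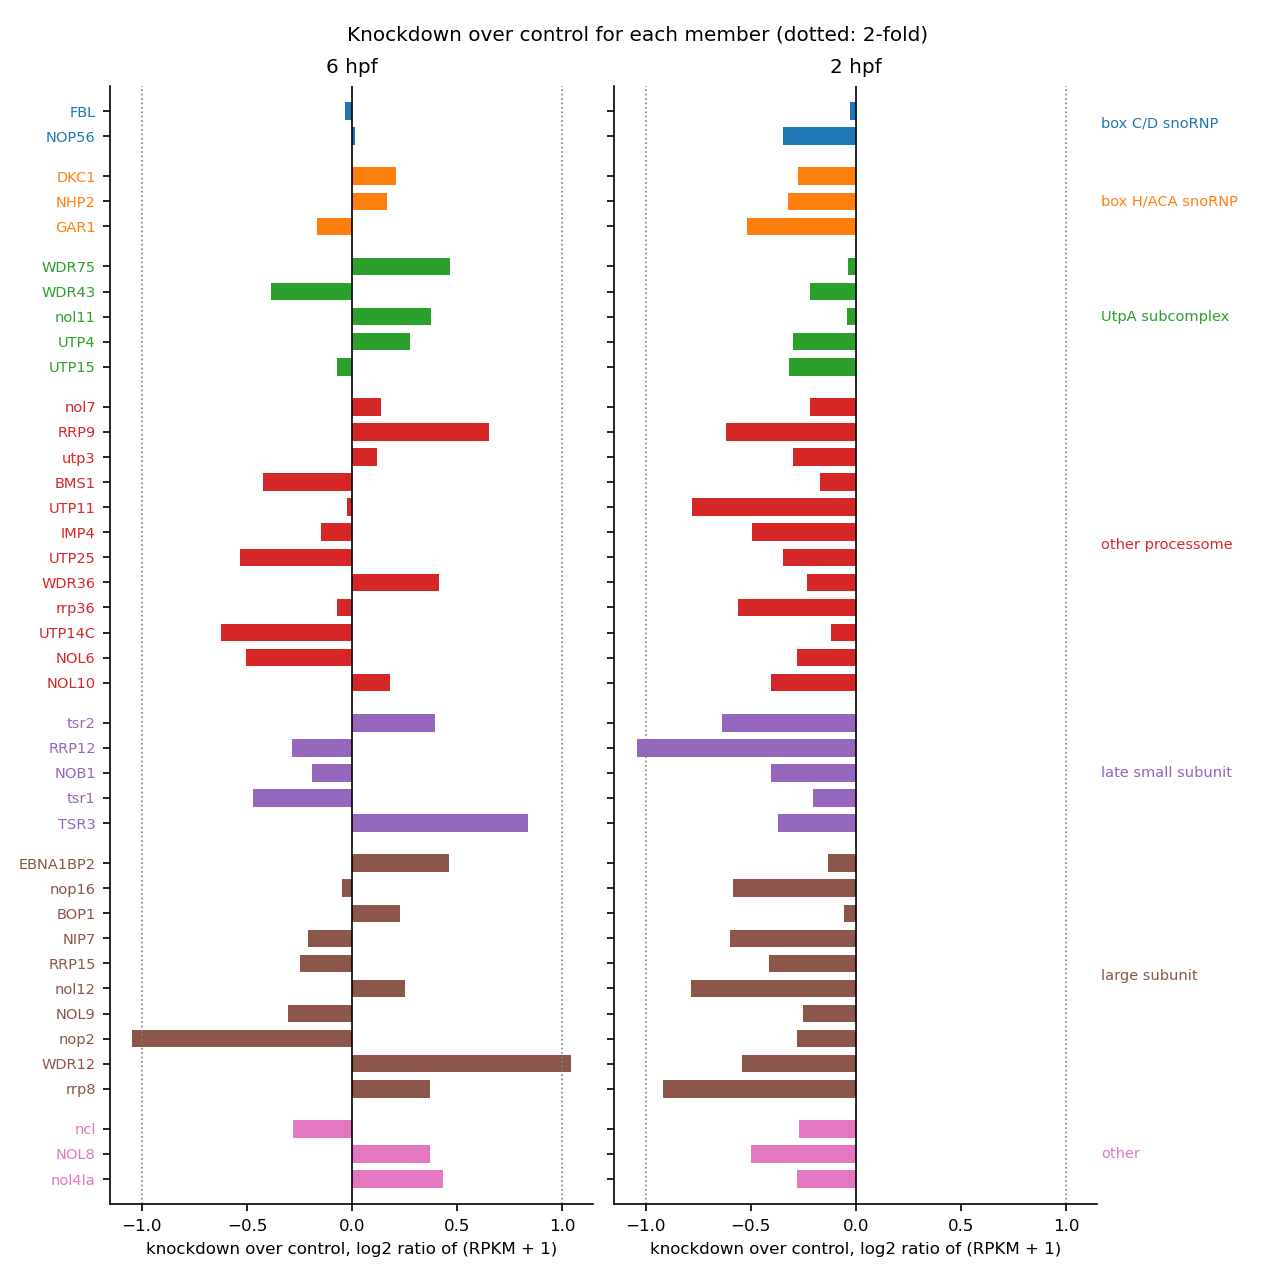
Log2 ratio of (RPKM + 1), knockdown over control, for each member at 6 hpf (left) and 2 hpf (right), coloured by role, with dotted lines at 2-fold. At 6 hpf bars point both ways and only WDR12 (1.04) and nop2 (-1.05) pass a dotted line; at 2 hpf all 40 bars point below 0 and only RRP12 (-1.04) passes.

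At 2 hpf all 40 members were lower in knockdown than in control embryos as deposited, most of them by less than 1.5-fold. Their median log2 ratio was -0.32 and ranged from -1.04 to -0.03, where all genes had a median of -0.12 and 70% of them lay below 0 (72.6% of genes that reached 5 RPKM). RRP12 fell and no member rose, which is 1 of 40 called where 1.45% of all genes were called (0.506% risen and 0.943% fallen). At 1.5-fold 7 of 40 members had fallen, where 6.47% of all genes had. All 40 values come from the same libraries, so they are not 40 separate measurements of the knockdown. The size also depends on the scaling. Rescaling by the median ratio moved ratios up by 0.20 and left 33 of 40 members below 0 with a median of -0.14, where 49.9% of all genes were below 0. Under this rescaling RRP12 stood at -0.86 and no member fell, where 0.617% of all genes did. Quantile normalization also left 33 of 40 below 0 (49.6% of all genes) and none fallen (0.573%). A few features took up much of the knockdown table at this age: 5 features above 5000 RPKM held 45.1% of the RPKM sum in knockdown and 1.34% in control embryos at 2 hpf. With those features left out and the sums made equal, 36 of 40 members were below 0 (61.7% of all genes) with a median of -0.24, and none had fallen by 2-fold (0.752%). The 5_8S_rRNA feature, which poly(A) capture should largely leave behind, stood at 812 RPKM in knockdown and 70.04 RPKM in control embryos at 2 hpf, and at 277 RPKM in knockdown and 53.4 RPKM in control embryos at 6 hpf. Its part in the members' lower values was not tested.

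**Figure D3:**
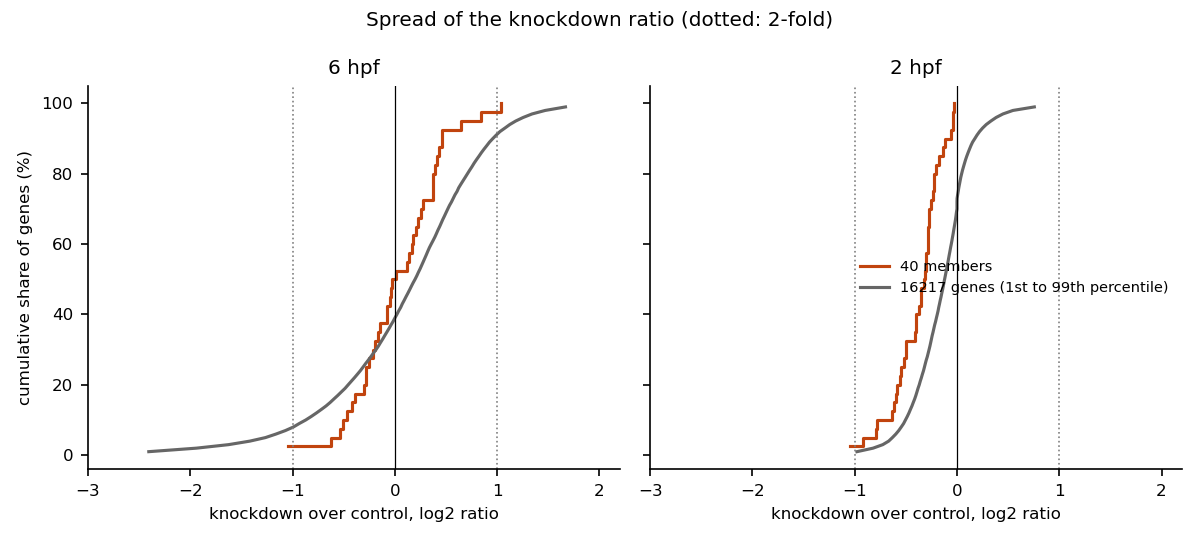
Cumulative share of genes in percent against the log2 ratio of knockdown over control, for the 40 members (stepped line) and 16217 genes (smooth line), at 6 hpf (left) and 2 hpf (right). The members' line is steeper than that of all genes at 6 hpf, with a median of -0.0043 against 0.20, and lies wholly below 0 at 2 hpf, with a median of -0.32 against -0.12.

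The 5 enzymes and scaffolds of snoRNPs had 6 hpf ratios between -0.17 and 0.21 and 2 hpf ratios between -0.52 and -0.03. Fibrillarin, FBL (ENSDARG00000053912), is the methyltransferase of box C/D snoRNPs. It stood at 603 RPKM in knockdown and 618 RPKM in control embryos at 6 hpf, and at 336 RPKM in knockdown and 344 RPKM in control embryos at 2 hpf. These values lie within a few percent of each other at each age, with a log2 ratio of -0.03 at both as deposited. After rescaling by the median ratio FBL was at -0.35 at 6 hpf and 0.17 at 2 hpf. NOP56 (ENSDARG00000012820), a scaffold protein of the same particle, stood at 278 RPKM in knockdown and 275 RPKM in control embryos at 6 hpf, and at 116 RPKM in knockdown and 148 RPKM in control embryos at 2 hpf. Its log2 ratio was 0.02 at 6 hpf and -0.35 at 2 hpf.

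The 3 box H/ACA members lay close to each other in their ratios and far apart in level. Dyskerin, DKC1 (ENSDARG00000016484), is the pseudouridine synthase. It stood at 398 RPKM in knockdown and 345 RPKM in control embryos at 6 hpf, and at 165 RPKM in knockdown and 200.1 RPKM in control embryos at 2 hpf. NHP2 (ENSDARG00000069422), an RNA-binding core protein, stood at 302 RPKM in knockdown and 269 RPKM in control embryos at 6 hpf, and at 148 RPKM in knockdown and 185 RPKM in control embryos at 2 hpf. GAR1 (ENSDARG00000076526), another core protein, stood at 166 RPKM in knockdown and 186 RPKM in control embryos at 6 hpf, and at 41.5 RPKM in knockdown and 60.01 RPKM in control embryos at 2 hpf. As deposited, DKC1 and NHP2 were thus a little higher in knockdown at 6 hpf and GAR1 a little lower, while all 3 were lower in knockdown at 2 hpf. After rescaling by the median ratio all 3 lay below 0 at 6 hpf as well: DKC1 at -0.11, NHP2 at -0.15 and GAR1 at -0.48.

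The UtpA members, whose proteins form a subcomplex that binds the earliest part of the precursor, did not go the same way. WDR43 (ENSDARG00000077264) stood at 101 RPKM in knockdown and 133 RPKM in control embryos at 6 hpf, a log2 ratio of -0.39. WDR75 (ENSDARG00000040730) stood at 71.1 RPKM in knockdown and 51.3 RPKM in control embryos at 6 hpf, a ratio of 0.46. For nol11 (ENSDARG00000026767), a member known from vertebrates, the values were 37.5 RPKM in knockdown and 28.6 RPKM in control embryos. UTP4 and UTP15 had ratios of 0.27 and -0.07 at that age. At 2 hpf the 5 members lay between -0.32 and -0.04. They differed more in their course over time: WDR43 had 101 RPKM at 6 hpf and 16.6 RPKM at 2 hpf in knockdown, and 133 RPKM at 6 hpf and 19.5 RPKM at 2 hpf in control embryos, a rise in both arms. By contrast nol11 had 37.5 RPKM at 6 hpf and 87.1 RPKM at 2 hpf in knockdown, and 28.6 RPKM at 6 hpf and 89.8 RPKM at 2 hpf in control embryos, a fall in both arms. WDR75 stood at 71.1 RPKM at 6 hpf and 85.7 RPKM at 2 hpf in knockdown, and at 51.3 RPKM at 6 hpf and 87.96 RPKM at 2 hpf in control embryos. The transcripts of this complex therefore had unlike levels at 2 hpf, from 15.3 RPKM for UTP15 to 87.1 RPKM for nol11 in knockdown and from 19.4 to 89.8 RPKM for the same genes in control embryos.

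Of the 12 other members that act in the processome none passed 2-fold at either age, where 16.6% of all genes did at 6 hpf and 1.45% at 2 hpf. Their median ratio was -0.05 at 6 hpf and -0.32 at 2 hpf. RRP9 (ENSDARG00000041991), a protein of the snoRNP that guides early cutting, had the highest ratio at 6 hpf, 0.65, with 117 RPKM in knockdown and 74.0 RPKM in control embryos. At 2 hpf it stood at 57.9 RPKM in knockdown and 89.4 RPKM in control embryos, a ratio of -0.62. The lowest ratio at 6 hpf was that of UTP14C (ENSDARG00000042520), of the Utp14 family that in yeast activates a processome helicase, at -0.62, with 36.9 RPKM in knockdown and 57.3 RPKM in control embryos. It hardly differed at 2 hpf, with 5.12 RPKM in knockdown and 5.65 RPKM in control embryos. UTP25 (-0.53), NOL6 (-0.50) and the GTPase gene BMS1 (-0.42) also lay below 0 at 6 hpf. BMS1 (ENSDARG00000054154) stood at 58.5 RPKM in knockdown and 78.7 RPKM in control embryos. WDR36, a WD-repeat protein of the UtpB subcomplex, stood at 29.7 RPKM in knockdown and 22.1 RPKM in control embryos at 6 hpf, a ratio of 0.41. IMP4 (ENSDARG00000054540), which in yeast pairs U3 RNA with the precursor, stood at 50.5 RPKM in knockdown and 56.1 RPKM in control embryos at 6 hpf, and at 10.3 RPKM in knockdown and 14.9 RPKM in control embryos at 2 hpf. The ratios of NOL10, nol7, utp3, UTP11 and rrp36 at 6 hpf lay between -0.07 and 0.18, while at 2 hpf UTP11 was at -0.78 and rrp36 at -0.56.

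The 5 members that act late on the small subunit held the only call at 2 hpf, where 1.45% of all genes were called. RRP12 (ENSDARG00000022410), which in yeast helps to export both subunits, stood at 11.5 RPKM in knockdown and 24.8 RPKM in control embryos at 2 hpf, a log2 ratio of -1.04. It was no longer past 2-fold with a pseudocount of 5 RPKM or under any of the 3 rescalings. At 6 hpf the arms were close, with 50.4 RPKM in knockdown and 61.6 RPKM in control embryos. The nuclease gene NOB1 (ENSDARG00000016080), whose product makes the last cut of the small subunit's RNA, stood at 44.2 RPKM in knockdown and 50.7 RPKM in control embryos at 6 hpf. At 2 hpf NOB1 stood at 13.7 RPKM in knockdown and 18.5 RPKM in control embryos. TSR3 (ENSDARG00000038567), an enzyme that modifies a base of that RNA, stood at 29.9 RPKM in knockdown and 16.3 RPKM in control embryos at 6 hpf, a ratio of 0.84 that does not reach 2-fold. At 2 hpf it went the other way, with 27.6 RPKM in knockdown and 36.0 RPKM in control embryos (-0.37). The gene tsr1, for a GTPase-like protein of late particles, was at -0.47 at 6 hpf, with 43.5 RPKM in knockdown and 60.8 RPKM in control embryos. The gene tsr2, whose yeast product escorts a ribosomal protein to the particle, was at 0.39, with 103 RPKM in knockdown and 78.3 RPKM in control embryos.

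Both calls at 6 hpf were among the 10 large subunit members, 1 risen and 1 fallen, where 8.72% of all genes rose and 7.87% fell. WDR12 (ENSDARG00000003287) encodes a protein of the PeBoW complex, which pescadillo, BOP1 and WDR12 form and which is needed to mature the large subunit's RNA. It stood at 34.6 RPKM in knockdown and 16.3 RPKM in control embryos at 6 hpf, a log2 ratio of 1.04, and at 13.5 RPKM in knockdown and 20.2 RPKM in control embryos at 2 hpf, a ratio of -0.54. Its partners lay nearer to 0 at 6 hpf. BOP1 (ENSDARG00000063627) stood at 68.3 RPKM in knockdown and 58.2 RPKM in control embryos at 6 hpf, a ratio of 0.23. The pescadillo gene is listed as PES1 (ENSDARG00000018902), a spelling outside the name rule, and was added after its values were seen. It stood at 52.8 RPKM in knockdown and 55.9 RPKM in control embryos at 6 hpf, a ratio of -0.08.

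The other call was nop2 (ENSDARG00000043304), a methyltransferase of the large subunit's RNA, which stood at 28.5 RPKM in knockdown and 59.98 RPKM in control embryos at 6 hpf, a log2 ratio of -1.05. It was low at 2 hpf, with 1.27 RPKM in knockdown and 1.76 RPKM in control embryos. RRP15 (ENSDARG00000013478), an early large subunit factor in yeast, was as low at 2 hpf, with 1.08 RPKM in knockdown and 1.77 RPKM in control embryos. Unlike nop2 it reached similar levels at 6 hpf, with 55.8 RPKM in knockdown and 66.6 RPKM in control embryos (-0.25). Of the remaining large subunit members rrp8, a base methyltransferase, lay furthest below 0 at 2 hpf (-0.92), with 4.71 RPKM in knockdown and 9.77 RPKM in control embryos, and nol12 followed at -0.79. With a pseudocount of 0.1 RPKM rrp8 also passed 2-fold. EBNA1BP2, nol12, nop16, NIP7 and NOL9 had ratios between -0.30 and 0.46 at 6 hpf.

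The remaining members, ncl, NOL8 and nol4la, were not tied to 1 of these steps. Nucleolin, ncl (ENSDARG00000002710), an abundant RNA-binding protein of the nucleolus, stood at 922 RPKM in knockdown and 1120.2 RPKM in control embryos at 6 hpf, and at 378 RPKM in knockdown and 456 RPKM in control embryos at 2 hpf. Its log2 ratio was -0.28 at 6 hpf and -0.27 at 2 hpf as deposited. After rescaling by the median ratio ncl was at -0.60 at 6 hpf and -0.07 at 2 hpf. With quantile normalization it was at -0.11 at 6 hpf and -0.29 at 2 hpf. As deposited, NOL8 was at 0.37 at 6 hpf and -0.50 at 2 hpf. The NOL4 family gene nol4la meets the name rule but is not known as an assembly factor; it stood at 0.905 RPKM in knockdown and 0.413 RPKM in control embryos at 6 hpf, where counting error is large. Reads that it may share with its paralog NOL4L could not be told apart.

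Most members were higher at 6 than at 2 hpf in both arms, with 4 of 40 below 0 in knockdown (42.6% of all genes) and 10 of 40 in control embryos (53.7%). In knockdown embryos 25 of 40 members rose between the ages and 2 fell, where 25.5% of all genes rose and 13% fell, and the members' median log2 ratio of 6 over 2 hpf was 1.26 against 0.19 over all genes. In control embryos 15 of 40 rose and 3 fell, where 27.5% of all genes rose and 28% fell, with a median of 0.75 against -0.17. The 15 members that rose in control also rose in knockdown embryos, and 10 more rose in knockdown embryos, among them DKC1, NHP2, NOP56, tsr2, rrp8 and WDR12. How many of all genes rose in both arms, or in a single arm, was not counted. With quantile normalization DKC1 and NHP2 were no longer past 2-fold in knockdown embryos, where 23 members rose (19.8% of all genes). In control embryos 15 members then rose (25.1%). With equal RPKM sums NHP2, BMS1, utp3 and rrp36 were not past 2-fold in knockdown embryos, and 21 members rose there (22.7% of all genes), against 15 in control embryos (26%). This gap between the arms depends on the scaling: after rescaling by the median ratio, which shifts control ratios by 0.56 and knockdown ratios by -0.0079, 25 members rose in knockdown (25.3% of all genes) and 27 in control embryos (34.6%), with medians of 1.25 in knockdown and 1.28 in control embryos. At 1.5-fold 26 rose in control embryos without rescaling, where 34.6% of all genes did. As deposited, the time ratio was larger in knockdown than in control for 30 of 40 members, where it was for 67.0% of all genes. After rescaling by the median ratio it was larger for 14 of 40, where it was for 45.9% of all genes. With quantile normalization it was larger for 29 of 40 (55.8% of all genes), and with equal RPKM sums for 30 of 40 (64.1%).

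**Figure D4:**
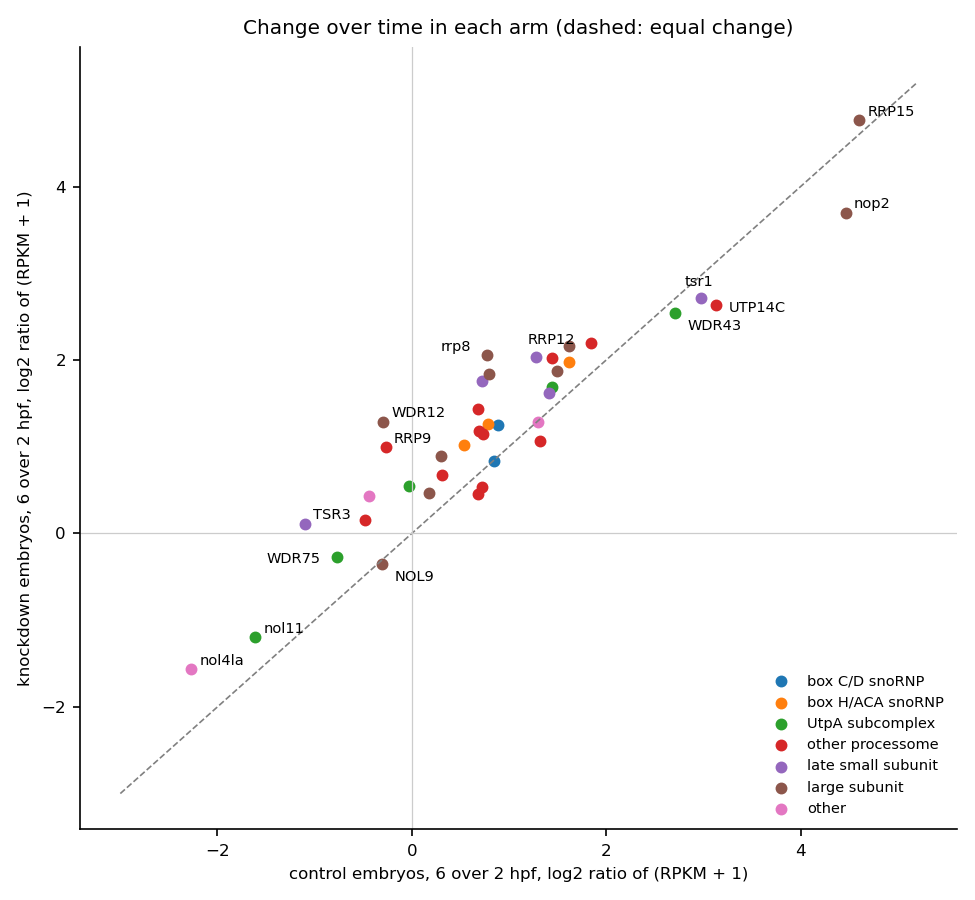
Log2 ratio of 6 over 2 hpf for each member in knockdown (vertical axis) and control embryos (horizontal axis), coloured by role, with a dashed line of equal change. Points run from nol4la (-1.56 in knockdown, -2.27 in control) to RRP15 (4.77 in knockdown, 4.61 in control); WDR12, TSR3 and RRP9 lie above the line and nop2 below it.

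The steepest rises were those of RRP15, nop2, tsr1, UTP14C and WDR43, each at least 4-fold in both arms. RRP15 had a time ratio of 4.77 in knockdown and 4.61 in control embryos. For nop2 it was 3.70 in knockdown and 4.46 in control embryos, for tsr1 2.71 in knockdown and 2.98 in control embryos, for UTP14C 2.63 in knockdown and 3.13 in control embryos, and for WDR43 2.54 in knockdown and 2.71 in control embryos. At 2 hpf these 5 genes stood at or under 19.5 RPKM in both arms. The medians of all members at that age were 21.3 RPKM in knockdown and 30.2 RPKM in control embryos. The 6 hpf ratio of knockdown over control was below 0 for each of the 5, from -1.05 to -0.25. Some members with like levels at 2 hpf lay above 0 at 6 hpf, among them rrp8 (0.37) and NOL10 (0.18). Other members past 2-fold in both arms had smaller time ratios. IMP4 had a time ratio of 2.19 in knockdown and 1.85 in control embryos, nop16 2.16 in knockdown and 1.62 in control embryos, GAR1 1.97 in knockdown and 1.62 in control embryos, and NIP7 1.88 in knockdown and 1.49 in control embryos. For NOL10 it was 2.03 in knockdown and 1.44 in control embryos, and for ncl 1.28 in knockdown and 1.295 in control embryos. Falls were few: nol11 had -1.20 in knockdown and -1.62 in control embryos, and nol4la -1.56 in knockdown and -2.27 in control embryos. As deposited, a further set of 6 members lay higher at 6 than at 2 hpf in knockdown and lower in control embryos: WDR12, TSR3, RRP9, WDR36, UTP4 and NOL8, with 6 hpf ratios from 0.27 to 1.04. Only TSR3 of these fell in control embryos (-1.10, and 0.11 in knockdown), and only WDR12 rose in knockdown embryos (1.29, and -0.29 in control). RRP9 lay just short of 2-fold in knockdown. TSR3 no longer fell in control embryos with a pseudocount of 5 RPKM, rescaling by the median ratio or quantile normalization. After rescaling by the median ratio TSR3 alone of the 6 stayed below 0 in control embryos (-0.57). UTP4 (0.52), RRP9 (0.28), WDR12 (0.23), NOL8 (0.09) and WDR36 (0.05) then lay above 0 there. With quantile normalization only UTP4 (0.22) did. With equal RPKM sums TSR3 (-0.08) and WDR36 (-0.03) lay below 0 in knockdown embryos. These sets were drawn after the values were seen and share the 6 hpf tables with the ratio given, which fixes its direction in part. The share of all genes that would fall in each set was not counted. As deposited, 67.0% of all genes had a larger time ratio in knockdown than in control embryos.

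Level at 2 hpf and ratio at 6 hpf come from different libraries. Across the 40 members the Spearman rho between the mean level at 2 hpf and the 6 hpf ratio was 0.33, and across all 16217 genes it was 0.35. As deposited, the 20 members under the median level of 26.6 RPKM had a median 6 hpf ratio of -0.17, with 14 below 0. The 20 above it had one of 0.19, with 6 below 0. These signs depend on the scaling: rescaling by the median ratio shifts 6 hpf ratios by about -0.32. After it 29 of all 40 members lay below 0, where 52.8% of all genes did. The split was not recounted under that scaling, and the share of all genes below 0 at matching levels was not counted. All genes at 1 RPKM or more at 2 hpf were put in 10 bins of level. Their median 6 hpf ratio was 0.16 to 0.34 in bins with a median level up to 20.2 RPKM. It was 0.42, 0.40 and 0.35 in the bins at 31.5, 53.9 and 121 RPKM. As deposited the rho of the members was close to that of all genes, and the points share libraries. With quantile normalization it was 0.45 across the members and 0.33 across all genes. After rescaling by the median ratio it was 0.32 across the members and 0.29 across all genes. The rho over all genes includes genes under 1 RPKM at 2 hpf, which the bins leave out.

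**Figure D5:**
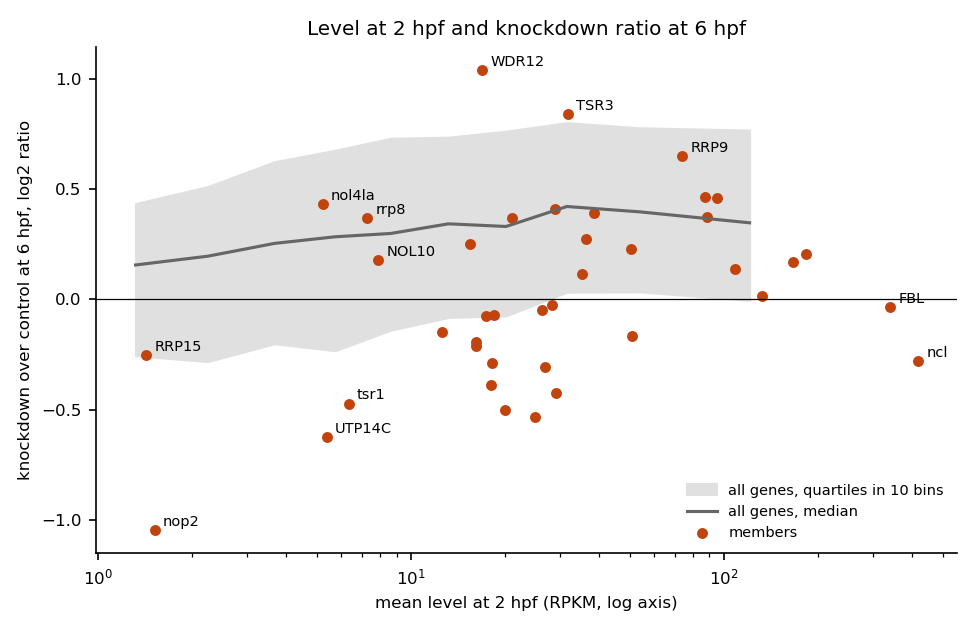
Log2 ratio of knockdown over control at 6 hpf against the mean level at 2 hpf (RPKM, log axis) for the 40 members (points), with the median and quartiles of all genes at 1 RPKM or more at 2 hpf in 10 bins of level (line and band). nop2 (-1.05), UTP14C (-0.62) and tsr1 (-0.47) lie below the band at low levels. Further members lie below it at higher levels, among them NOL6 (-0.50) and BMS1 (-0.42), while WDR12 (1.04) and TSR3 (0.84) lie above it.

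Other genes of the pathway were taken from lists chosen by function. Of 26 other small subunit factors 1 fell and none rose at 6 hpf, with a median ratio of -0.15, and of 41 other large subunit factors none rose or fell, with a median of -0.06, where 8.72% of all genes rose and 7.87% fell. Once rescaled by the median ratio, 4 of the 26 and 7 of the 41 had fallen and none had risen, where 12.2% of all genes had fallen and 3.9% had risen. At 2 hpf 25 of the 26 and 36 of the 41 lay below 0, where 70% of all genes did, and with the same rescaling 22 of the 26 and 32 of the 41 did, where 49.9% of all genes did. PPAN, a large subunit factor gene named after its values were seen, fell (-1.01), with 22.8 RPKM in knockdown and 46.9 RPKM in control embryos; it no longer did once rescaled. The call at 6 hpf was DIMT1, an rRNA dimethylase gene, with 20.9 RPKM in knockdown and 44.7 RPKM in control embryos (-1.06); at 2 hpf it stood at 0.739 RPKM in knockdown and 1.62 RPKM in control embryos. LTV1, an export factor gene, lay at 0.90 at 6 hpf with 51.4 RPKM in knockdown and 27.2 RPKM in control embryos, and the kinase gene RIOK1 at 0.86 with 39.7 RPKM in knockdown and 21.4 RPKM in control embryos. Among large subunit factors the GTPase gene GTPBP4 lay at -0.98 and MRTO4 at -0.94, while URB2 lay at 0.94. GTPBP4 stood at 62.1 RPKM in knockdown and 124 RPKM in control embryos. None of the 11 RNA polymerase I genes rose or fell at 6 hpf (median 0.01), where 16.6% of all genes did, and all 11 lay below 0 at 2 hpf (median -0.31), where 70% of all genes did. Rescaling left 9 of the 11 below 0 at 6 hpf (median -0.30; 52.8% of all genes) and 8 of the 11 at 2 hpf (median -0.13; 49.9%). The polymerase subunit genes POLR1B and polr1e lay at -0.58 and -0.52 at 6 hpf, and ubtfl at 0.49. Nor did any of 14 snoRNP biogenesis and nucleolar genes pass 2-fold at 6 hpf (median 0.03) as deposited; once rescaled 2 of the 14 had fallen (median -0.28), where 12.2% of all genes had. Before rescaling coil lay at 0.85, and npm1b and mybbp1a lay both at -0.73. At 2 hpf 12 of the 14 lay below 0 (median -0.19), where 70% of all genes did. Once rescaled 7 of the 14 did (median -0.0026), where 49.9% of all genes did.

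By RefSeq gene order (assembly GRCz12tu, used for neighbours alone) 39 members were matched, and no 2 of them were immediate protein-coding neighbours.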

How the data were processed

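Whole-embryo RNA was captured on oligo(dT) beads and made into stranded libraries, per the labels' protocols. Reads were handled with cutadapt 1.13, Trimmomatic 0.36, HISAT2 2.0.5 and SAMtools 1.9 on Zv9, per the submitters' processing notes. How reads were counted, on which annotation and with what gene lengths, is not given in the sources used here. RPKM of 33737 Ensembl identifiers was deposited, as a single value for both libraries of a group. Tables without column names were matched to groups by the arm and age in their own names; the arm named wild type was taken as the control morpholino. Symbols came from a table that matched 21939 identifiers, and some are in upper case as it gives them. No coordinates are given.

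A limma fit had been planned for values per library; with 1 value per group the stated fallback was used, log2 ratios of (RPKM + 1) over genes at 1 RPKM or more in any group, called at 2-fold (Python 3.11.15, pandas 2.3.3), with no test. Ratios and rescaling were tested on simulated data. The members, roles and lists were chosen with earlier results of these data known. Members named in full were a fixed set of core factors, those past 2-fold with at least 5 RPKM in the higher group (up to 12 per direction), the 5 highest and 5 lowest by mean level, and in each other list the 3 genes with the largest 6 hpf ratio; further members are named by role, with values seen. Other settings tried were a pseudocount of 0.1 or 5 RPKM, a filter of 5 RPKM or none, rescaling by the median ratio, quantile normalization, equal RPKM sums without features above 5000 RPKM, a 1.5-fold limit and other readings of the name rule. Read worth came from low genes (284 at 6 hpf, 254 at 2 hpf) whose values, all under 0.3 RPKM, lay on steps within 0.0009 on the log2 scale, each value taken as 1 read. It covers counting error alone and need not hold for the members.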

Additional observations from a re-analysis of the deposited data

Results flagged for a closer look

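WDR12 was picked out because its knockdown ratio changed direction between the ages and the 2 ratios lay at least 2-fold apart under every scaling tried. The log2 ratio was 1.04 at 6 hpf, with 34.6 RPKM in knockdown and 16.3 RPKM in control embryos, and -0.54 at 2 hpf, with 13.5 RPKM in knockdown and 20.2 RPKM in control embryos. The difference of 1.58 was 1.09 after rescaling by the median ratio, 1.23 with quantile normalization and 1.496 with equal RPKM sums. With 1 value per group the difference was not tested. How many of all genes meet this rule was not counted. As deposited, the difference over all genes had a median of 0.35 and an upper quartile of 0.80. As deposited, rrp8 (1.29), RRP9 (1.27), TSR3 (1.21), nol12 (1.04) and tsr2 (1.03) also changed direction with ratios at least 2-fold apart. They did not reach 2-fold after rescaling by the median ratio. With quantile normalization RRP9 (1.08) alone of them still did. With equal RPKM sums rrp8 (1.21), RRP9 (1.18) and TSR3 (1.12) did.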

How the results depend on the processing

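No paired analysis was possible because each group has 1 value per gene, and no replicate could be left out for the same reason; the planned description of promoter motifs was not run either, since no promoter sequences were used here. Medians are said to have moved when they shifted by more than 0.1 on the log2 scale, and counts when they changed by more than 1.5 times. At 6 hpf, knockdown against control, the risen member (WDR12) was lost with a pseudocount of 5 RPKM, rescaling by the median ratio and quantile normalization (0 risen each), and the fallen member (nop2) with a pseudocount of 5 RPKM (0 fallen); at 1.5-fold 3 had risen and 2 had fallen. Rescaling by the median ratio gave a median of -0.32. At 2 hpf the fallen member (RRP12) was lost with a pseudocount of 5 RPKM and all 3 rescalings (0 fallen), a pseudocount of 0.1 RPKM gave 2 fallen and 1.5-fold gave 7; the median became -0.14 after rescaling by the median ratio and -0.19 with quantile normalization. Over time in knockdown embryos 1 member had fallen with a pseudocount of 5 RPKM and 1 without nol4la, and the median was 1.06 with quantile normalization and with equal RPKM sums. Over time in control embryos 27 had risen after rescaling by the median ratio, 26 at 1.5-fold, and the median was 1.28 after that rescaling and 0.92 with quantile normalization. The members' median difference between the knockdown ratios at 6 and 2 hpf was 0.42, which was -0.0843 after rescaling by the median ratio and 0.22 with quantile normalization. Over all genes it was 0.35, and -0.0429 and 0.11 under the same 2 settings. No called member changed sign under any of these settings. Of the other readings of the name rule, admitting nop, utp and rrp without a digit gave 26 risen over time in knockdown embryos, and leaving out nol4la gave 2 fallen over time in control embryos. The cause of these shifts was not tested. Replicate error is unknown, so a difference near 2-fold may lie within it.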

Other observations

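Among genes that trim the precursor, the nuclear exosome and its partners, 3 of 12 rose at 6 hpf and none fell (8.72% of all genes rose and 7.87% fell), with a median log2 ratio of 0.49 where all genes had 0.20. After rescaling by the median ratio none of the 12 rose or fell, where 3.9% of all genes rose and 12.2% fell, and their median was 0.19. ERI1, an exonuclease gene, stood at 33.2 RPKM in knockdown and 13.2 RPKM in control embryos. C1D, an exosome cofactor gene, stood at 161 RPKM in knockdown and 74.2 RPKM in control embryos, and the core subunit gene EXOSC9 at 56.3 RPKM in knockdown and 26.5 RPKM in control embryos. At 2 hpf none of the 12 rose or fell, where 1.45% of all genes did, and ERI1 and EXOSC9 stood at ratios of -0.51 and -0.38, with C1D at 0.09. At that age 8 of the 12 lay below 0 (median -0.115), where 70% of all genes did. After rescaling by the median ratio 5 of the 12 did (median 0.08), where 49.9% of all genes did.

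Myc proteins drive many ribosome assembly genes in other vertebrates. Of 10 listed symbols of the Myc and Max families 5 were matched to a value here, MAX and MXI1 as well as Myc genes. None of these 5 genes rose or fell at 6 hpf, where 16.6% of all genes did. Their median log2 ratio was -0.32, against 0.20 over all genes, and -0.61 after rescaling by the median ratio, against -0.0454. At 6 hpf mych stood at 226 RPKM in knockdown and 173 RPKM in control embryos, and mycla at 264 RPKM in knockdown and 140.1 RPKM in control embryos. The other 3 were lower in knockdown. MXI1 stood at 13.7 RPKM in knockdown and 20.8 RPKM in control embryos. MAX stood at 105 RPKM in knockdown and 134 RPKM in control embryos. MYCN stood at 13.3 RPKM in knockdown and 16.8 RPKM in control embryos. MAX and MYCN were named after their values were seen.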
